A study of Mus musculus with 6 samples.

Results

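Cluster 2 is 1 of the groups into which the depositors sorted the RNA profiles of the PB3 line, grown from a mammary tumour of the mouse, before and after repeated exposure to eribulin or paclitaxel. Its members were taken as all entries that the deposited table numbers 2, and came to 6032 of 51785, of which 5344 (88.6%) were whole cells and 688 were nuclei. The 3 sequencing runs contributed 6 libraries. Run 1 gave cells after 4 rounds of eribulin (ERI4 cells, 1967 in the cluster) and untreated cells (UNT cells, 12). Run 2 gave hashtag-labelled pools of cells after 1, 2 and 3 rounds of eribulin (ERI1, 9; ERI2, 37; ERI3, 1694) and of paclitaxel (PAC1, 270; PAC2, 65; PAC3, 1290). Run 3 gave nuclei after 4 rounds of eribulin (ERI4 nuclei, 641) and untreated nuclei (UNT nuclei, 47). All conditions shared 1 cell line carrying lentiviral barcodes, and each had 1 library. No test was therefore possible, and no p-value is given. Each eribulin round was 500 nM for 72 h followed by 48 h without drug. Paclitaxel was given at 100 nM in round 1, also for 72 h, and at 250 nM afterwards, with a 48 h pause after round 1. For the end of treatment, the labels name no recovery in PAC2 and no length of recovery in PAC1 and PAC3. Drug, dose, recovery and library cannot be told apart in ERI3 against PAC3, and ERI4 cells differ from ERI3 in run as well as in rounds. Along the paclitaxel series, dose or the named recovery changes together with the number of rounds.

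Eribulin and paclitaxel both act on microtubules, the filaments that pull chromosomes apart in mitosis. Eribulin blocks the growth of microtubules, whereas paclitaxel stabilises them, and dividing cells that meet either drug can arrest in mitosis. A lentiviral lineage barcode is a short synthetic sequence that integrates into the genome and passes to all daughter cells, so cells with the same barcode descend from 1 founder or from founders infected with the same barcode. It is read from RNA made from the integrated copy, so its detection depends on how much of that RNA a cell makes and on how deeply the cell was sequenced. Pseudotime orders cells along a path fitted through the expression profiles, here rooted in untreated cells. The cluster numbers, the UMAP map, pseudotime and the phase scores all come from the same expression values. They describe the cluster and are no independent support for it, whereas the lineage barcode was kept as a separate measure. Gene-level values were not analysed here, so no cell type or state was named from marker genes.

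7 barcodes were each called in at least 5% of the barcoded cells of cluster 2 in some condition with 100 or more such cells, or were among the 5 most frequent of the cluster. They held 2771 of the 2991 cluster 2 cells and nuclei with 1 called barcode (92.6%). Their sequences show what separates the lineages. Each has a part of 14 bases and a part of 30 bases, in capitals, joined by a constant spacer of 4 bases in lower case.
bc14-76-bc30-49517: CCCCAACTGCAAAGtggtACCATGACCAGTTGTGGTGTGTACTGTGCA
bc14-55-bc30-23349: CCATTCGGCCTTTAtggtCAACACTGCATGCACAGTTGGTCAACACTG
bc14-89-bc30-6288: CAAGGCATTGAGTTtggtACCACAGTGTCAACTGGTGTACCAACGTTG
bc14-6-bc30-93034: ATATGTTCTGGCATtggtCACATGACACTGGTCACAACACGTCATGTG
bc14-67-bc30-98947: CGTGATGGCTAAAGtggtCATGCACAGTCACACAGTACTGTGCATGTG
bc14-95-bc30-33662: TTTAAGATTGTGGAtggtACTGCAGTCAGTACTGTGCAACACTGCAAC
bc14-65-bc30-93586: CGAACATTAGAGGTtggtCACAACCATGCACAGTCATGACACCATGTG
Any pair of the 7 differed at 26 to 40 of 48 positions. A misread of a few bases would therefore not turn one into another. The barcodes are synthetic and have no position in the mouse reference genome.

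Cluster 2 was rare in untreated cells and after the first 2 rounds of eribulin, was less rare after the first 2 rounds of paclitaxel, and was the largest cluster of both drugs after round 3. Under eribulin it held 0.483% of ERI1 cells (exact 95% interval 0.221 to 0.914%), 2.94% of ERI2 (2.08 to 4.03%) and 55.1% of ERI3 (53.3 to 56.8%). Under paclitaxel it held 9.22% of PAC1 (8.20 to 10.3%), 7.67% of PAC2 (5.97 to 9.67%) and 46.2% of PAC3 (44.3 to 48.1%). The step between rounds 2 and 3 was thus far larger than that between rounds 1 and 2 in both series, but paclitaxel already had cells in the cluster after round 1. Under paclitaxel, dose rose after round 1 and PAC2 had no named recovery, so rounds cannot be told apart from them. At round 3 the share was 8.87 percentage points higher in ERI3 than in PAC3, but among cells with 1 called barcode it was 46.7% in ERI3 and 48.5% in PAC3, within counting error. At round 1 it was lower in ERI1 than in PAC1. In run 1 the cluster held 21.1% of ERI4 cells (20.3 to 21.9%) and 0.108% of UNT cells (0.0561 to 0.189%). Among ERI4 cells with 1 called barcode the share was 7.20%. In run 3 it held 7.36% of ERI4 nuclei (6.82 to 7.93%) and 0.474% of UNT nuclei (0.348 to 0.630%). Treated samples were higher in both runs, in cells and in nuclei, while the same 4 rounds gave a lower share in nuclei than in cells. These intervals cover counting error within a library only, not the spread between cultures. None of the cluster's cells fell outside the stated quality filter, and none shared its droplet cell barcode with a cluster 2 cell of another library.

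**Figure D1:**
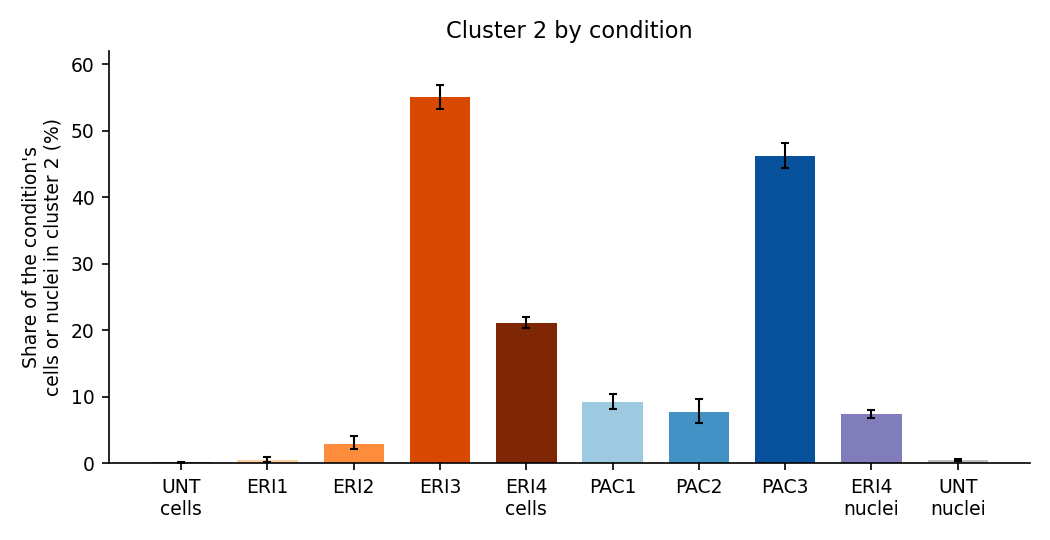
Share of each condition's cells or nuclei in cluster 2, in percent; bars give the share and lines the exact 95% interval, which covers counting error only. ERI3 at 55.1% and PAC3 at 46.2% stand above all other conditions, with ERI4 cells at 21.1%.

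The shares depended on which cells carried a readable barcode. Among ERI3 cells with no detected barcode, 83.3% lay in cluster 2 (80.4 to 85.9%), against 18.5% of ERI3 cells called with any barcode other than bc14-76-bc30-49517 (16.4 to 20.6%). For ERI4 cells the share was 59.8% of those with no barcode and 1.11% of those with another barcode. For PAC3 it was 47.6% of those with no barcode and 6.42% of those with another barcode. Leaving out all cells called bc14-76-bc30-49517, the cluster held 40.9% of the remaining ERI3 cells and 15.3% of the remaining PAC3 cells. Cells of that lineage and cells with no barcode read thus made up most of the cluster in ERI4 cells, ERI3 and PAC3, in different proportions.

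On the UMAP, cluster 2 did not form 1 patch. Run 2 cells lay around 0.313 on the second axis in ERI3 (median) and 0.293 in PAC3, whereas ERI4 cells lay around 4.63. With a line drawn midway between ERI4 and ERI3 cells, at 2.47, 98.2% of ERI4 cells lay above it, against 2.01% of ERI3 and 0.0775% of PAC3 cells. Of the 37 ERI2 cells, also of run 2, 8 lay above it. Nuclei lay apart from all cells, with a median of 7.02 on the first axis in ERI4 nuclei, against -1.86 in ERI4 cells. On the second axis the nuclei were themselves split, at a median of 3.12 for ERI4 nuclei and -2.53 for UNT nuclei. The line had 96.4% of ERI4 nuclei above it, against 2.13% of UNT nuclei, although both came from run 3. Treatment and library cannot be told apart between them. ERI4 cells, ERI4 nuclei, UNT nuclei and most run 2 cells therefore occupied separate places within the same cluster number. Among cells, and between cells and nuclei, run, rounds and protocol cannot be told apart in that separation.

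Within run 2 the drugs overlapped, though not evenly. Of the 3365 run 2 members, 50.3% were ERI3 and 38.3% were PAC3. Of the 30 nearest neighbours of an ERI3 cell within cluster 2, 58.3% on average were ERI3 cells and 30.9% were PAC3 cells. Around PAC3 cells, 39.3% of neighbours were ERI3 and 50.9% were PAC3. The cells of each condition thus met those of the other drug less often than their share of the run 2 members, and their own condition more often. ERI4 cells made up 32.6% of the cluster but 1.05% of the neighbours of ERI3 cells, and 98.1% of the neighbours of an ERI4 cell were ERI4 cells. Neighbours drawn from all clusters showed how closed the group was: 91.8% of those of ERI4 cells lay in cluster 2, as did 77.3% for ERI3, 82.2% for PAC3 and 14.9% for ERI4 nuclei. The nuclei numbered 2 thus lay mostly among nuclei of other clusters. They still met each other more often than the cluster's 7.36% share of ERI4 nuclei.

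**Figure D2:**
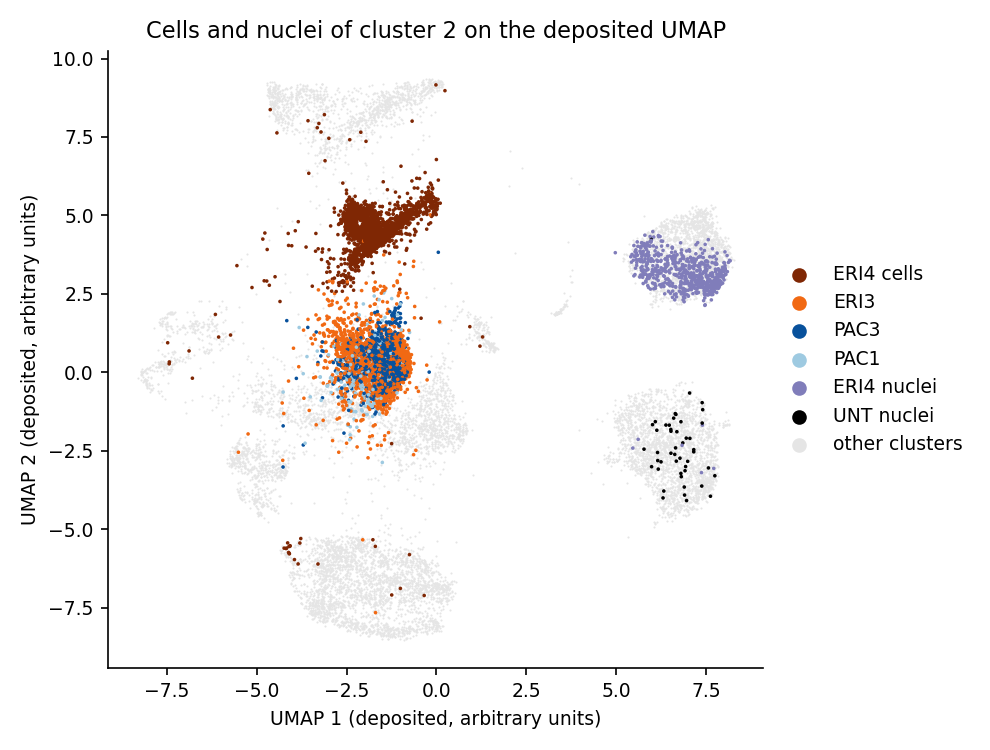
Deposited UMAP coordinates (arbitrary units) of cluster 2 cells and nuclei by condition, over a subset of the other clusters' entries in grey; UNT cells, ERI1, ERI2 and PAC2 are not drawn. ERI3 and PAC3 cells share 1 region, ERI4 cells lie above them with 98.2% past the midway line at 2.47 on the second axis, and nuclei lie to the right.

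Pseudotime within cluster 2 was higher after 3 rounds of eribulin than after 3 rounds of paclitaxel. Its median was 22.7 in ERI3 (interval of the median 22.6 to 23.0) and 21.0 in PAC3 (21.0 to 21.1), and the ERI3 cell was the higher in 82.9% of all pairs of 1 ERI3 and 1 PAC3 cell. The ERI4 median was 25.7 (25.7 to 25.7), and the ERI4 cell was the higher in 92.3% of pairs with ERI3. At round 1 the medians were 21.0 in ERI1, with 9 cells, and 20.9 in PAC1. The paclitaxel rounds had nearly equal medians: 20.9 after round 1, 20.9 after round 2 and 21.0 after round 3. The cells of PAC1 were more spread, since 17.8% lay below 18 on the scale, against 1.89% in ERI3. ERI2, with 37 cells, had a median of 18.0, below that of PAC2. It described few of its cells, as 51.4% lay below 18, 18.9% between 22 and 23, and another 18.9% between 23 and 24. ERI4 nuclei had a median of 23.5, against 11.0 in UNT nuclei. The 47 UNT nuclei ranged from 8.63 to 24.1, and the UNT nuclei of all other clusters had a median of 13.3.

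Pseudotime is not evenly filled. Rounded to 1 decimal, the 3 most common values held 56.7% of ERI3 cells (23.5, 22.5 and 23.2), 55.1% of ERI4 cells (26.1, 25.7 and 23.5) and 30.5% of PAC3 cells. Cells that project onto the same part of the fitted path receive like values, so medians can move in steps. Phase moved with them: in ERI4 cells the median was 24.9 in G1, 26.1 in S and 25.7 in G2M, and in ERI3 cells it was 22.5 in G1, 23.5 in S and 22.6 in G2M. In PAC3 the median was 21.0 in each of the 3 phases. Among the neighbouring clusters, cluster 3 lay further along the path in ERI4 cells (30.0, against 25.7 in cluster 2 of the same library), and cluster 8 lay nearer the root, at 17.8. Cluster 9, which is mostly of paclitaxel-treated cells, had 22.0 in PAC3, close above cluster 2.

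**Figure D3:**
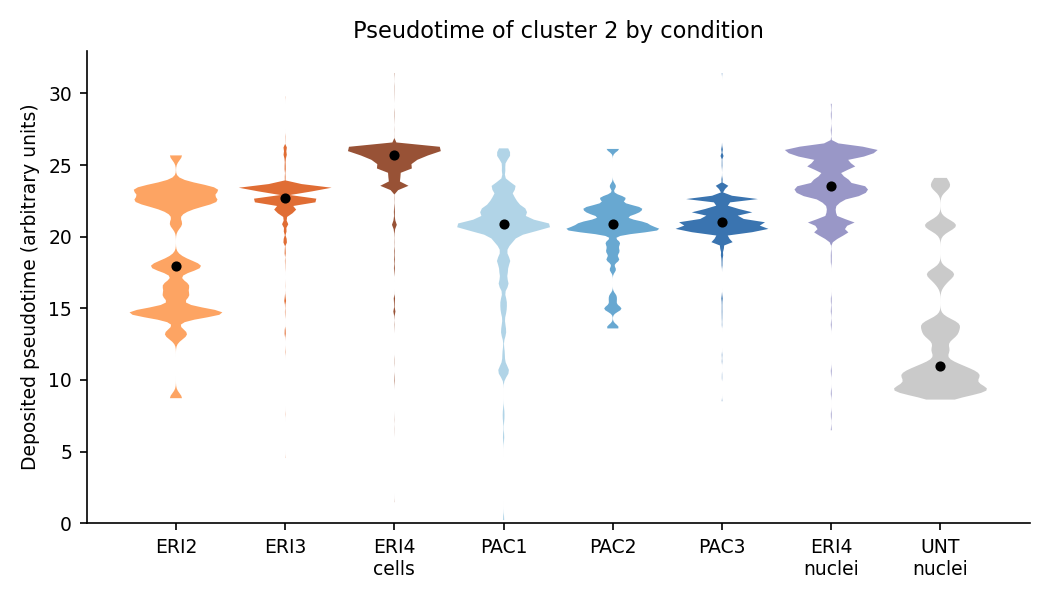
Deposited pseudotime (arbitrary units) of cluster 2 by condition; shapes show the distribution of cells or nuclei, points the median. ERI4 cells sit highest at 25.7, ERI3 at 22.7, the 3 paclitaxel rounds at 20.9 to 21.0, and UNT nuclei at 11.0.

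The phase scores, each summarising genes used in S phase or in G2 and mitosis, showed cells of every phase in cluster 2. Cells were set to G1 where both scores were at or below 0 and otherwise to the phase with the higher score. Over all depths ERI3 and PAC3 had nearly the same makeup: G1 was 37.5% in ERI3 and 36.0% in PAC3, and G2M was 42.0% in ERI3 and 43.8% in PAC3. S was 20.5% in ERI3 (18.6 to 22.5%) and 20.2% in PAC3 (18.0 to 22.4%). In a window of UMIs common to ERI4 cells, ERI3 and PAC3 (13512 to 18945), G2M was 63.6% in ERI3 (58.4 to 68.5%) and 52.8% in PAC3 (47.3 to 58.2%), and G1 was 20.9% in ERI3 and 29.5% in PAC3. S-phase calls were more frequent in ERI4 cells, at 30.5% (28.5 to 32.6%), and in PAC1, at 27.0% (21.8 to 32.8%). The median S score was -0.08 in ERI4 cells, against -0.14 in ERI3. Nuclei have no deposited phase scores.

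The phase calls moved with depth. Median UMIs, the counted RNA molecules per cell, were 23886 in ERI4 cells, 11430 in ERI3 and 13133.5 in PAC3, and the ERI4 cell was the deeper in 88.1% of pairs with ERI3. With the ERI4 cells of the cluster split by UMIs into 4 equal groups, the S share, shallowest group first, was 13.2%, 36.2%, 51.1% and 21.5%, and the G2M share reached 65.0% in the last. In ERI3, split the same way, it was 11.1%, 27.4%, 30.3% and 13.2%, and G2M reached 65.1%. In both, S calls were most frequent in the middle of the depth range and G2M calls at its top. In the common window of UMIs, the S share was 16.5% in ERI4 cells, 15.5% in ERI3 and 17.7% in PAC3, within counting error of each other. That window takes mostly G1 calls from ERI4 cells (63.8%) and mostly G2M calls from ERI3 (63.6%), since it lies low in one depth range and high in the other. It therefore compares cells of unlike phase makeup. Between depth groups of the same rank, whose UMIs differ, the S share was higher in ERI4 cells than in ERI3 in all 4, with intervals that did not overlap in the third and the deepest.

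**Figure D4:**
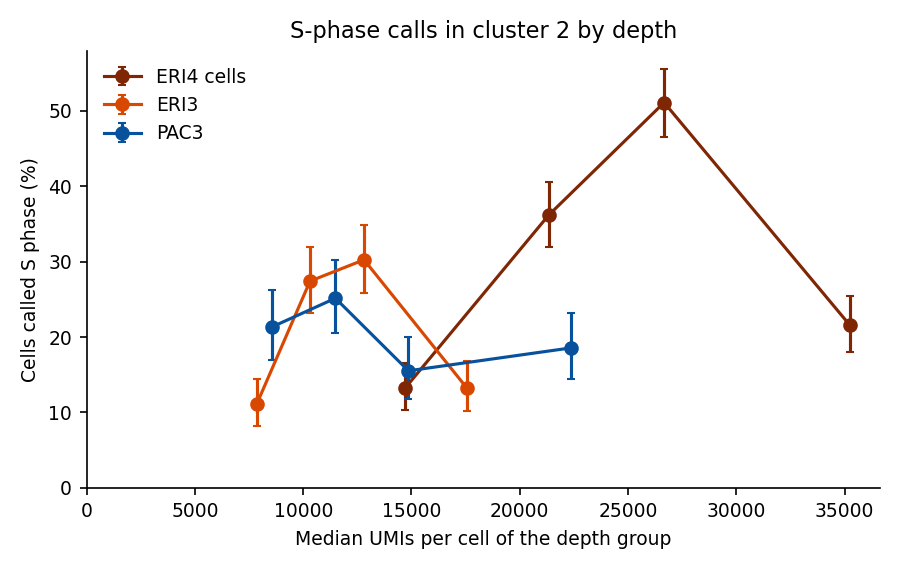
Share of cluster 2 cells called S phase (percent, with exact 95% intervals for counting error) in each of 4 equal depth groups per condition, against the group's median UMIs. S calls peak at 51.1% in the third depth group of ERI4 cells, at 30.3% in the third of ERI3, and at 25.2% in the second of PAC3.

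Against the other clusters of the same library, cluster 2 of ERI4 had more S calls than cluster 3 (30.5% against 15.7%) and about as many as cluster 8 (29.5%). In the common UMI window its S share was 16.5%, against 10.8% in cluster 3 and 19.9% in cluster 8. In PAC3 it had 20.2% S calls, against 15.3% in cluster 9, 22.4% in cluster 8 and 4.00% of the 25 cells in cluster 3. In ERI3 it had 20.5%, against 20.3% in cluster 8 and 16.4% in cluster 3 (11.9 to 21.9%). In the window the S share in PAC3 was 17.7% in cluster 2 and 16.5% in cluster 9, within counting error.

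The mitochondrial share of UMIs, a common sign of cell quality, was higher in ERI4 cells than in ERI3 and PAC3, inside and outside the cluster. Its median in cluster 2 was 4.55% in ERI4 cells, 3.01% in ERI3 and 2.82% in PAC3, and outside the cluster it was 4.74% in ERI4 cells, 2.95% in ERI3 and 2.40% in PAC3. Outside the cluster it was also 3.83% in ERI2 of run 2 and 4.08% in UNT cells of run 1. Run and rounds cannot be told apart in the ERI4 values. In PAC3 cluster 2 was above cluster 9, at 2.24%, and the cluster 2 cell was the higher in 72.4% of pairs. ERI4 nuclei had 12.9%, against 9.38% in UNT nuclei. Mitochondrial RNA in nuclei comes from outside the nucleus, and those values are not comparable with cells.

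Barcode bc14-76-bc30-49517 was called in 2468 of the 2991 barcoded members (82.5%). It made up 85.5% of called cells in ERI4 (82.1 to 88.5%), 75.4% in ERI3 (72.7 to 78.0%), 93.2% in PAC3 (91.6 to 94.6%) and 58.6% in PAC1, and 71.8% of called ERI4 nuclei. It was the most frequent barcode of the cluster in each of these conditions. Among all called cells of a condition it made up 6.42% in ERI4 cells, 37.9% in ERI3, 48.9% in PAC3 and 9.15% in PAC1. In ERI4 nuclei it made up 30.2% of all called. It also led cluster 6 in ERI3 (30.8% of called) and PAC3 (43.5%), and cluster 7 in ERI2 (27.0%) and PAC2 (33.8%). In ERI4 nuclei it also led cluster 4 (34.4%). In the smaller groups it was called in 43 of 52 cells in PAC2, 15 of 16 in ERI2 and 6 of 6 in ERI1, and in 0 of 2 UNT cells and 0 of 14 UNT nuclei. The effective number of lineages, the inverse Simpson index, was 1.36 in cluster 2 of ERI4 cells (1.78 in the rest of that condition), 1.73 in ERI3 (3.77 in the rest), 1.15 in PAC3 (4.86 in the rest) and 2.81 in PAC1 (26.2 in the rest). A value of 1 would mean a single lineage, and the rest of a condition pools several clusters. Single clusters could be as narrow: cluster 3 had 1.04 effective lineages in ERI4 cells and 1.21 in ERI3, both led by bc14-55-bc30-23349, and cluster 8 had 1.47 in ERI3, 1.23 in PAC3 and 2.33 in PAC1, all led by bc14-6-bc30-93034.

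The lineage lay mostly outside cluster 2 before round 3 of eribulin, but not in PAC1. Of its cells, 10.5% lay in cluster 2 in ERI1, 6.20% in ERI2, 93.0% in ERI3 and 95.8% in ERI4 cells. It lay mostly in cluster 7 before that, with 89.5% in ERI1 and 89.3% in ERI2. Under paclitaxel 56.1% of its cells were in cluster 2 in PAC1, 34.4% in PAC2, where 58.4% were in cluster 7, and 92.5% in PAC3. In ERI4 nuclei 18.6% were in cluster 2 and 36.1% in cluster 10. Cluster 2 held 3.16% of ERI4 nuclei with another called barcode and 7.36% of all ERI4 nuclei, and cluster 10 held 24.3% of all. Most nuclei of the lineage thus lay outside cluster 2, though a larger part lay in it than of nuclei with other barcodes. The lineage's 6 UNT cells included 4 in cluster 1 and none in cluster 2.

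The other named lineages entered cluster 2 in smaller numbers and differed between the drugs. Barcode bc14-55-bc30-23349 had 81 cells there in ERI3 (7.83% of called), 21 in ERI4 cells and 0 of 1109 called in PAC3 (exact interval up to 0.332%). The cluster held 26.6% of its ERI3 cells and 0.457% of its 4597 ERI4 cells, most of which lay in cluster 3 (64.3% in ERI3 and 96.4% in ERI4). No PAC3 cell of any cluster was called with this barcode, so its absence there is not particular to cluster 2. Barcode bc14-89-bc30-6288 had 59 cells in ERI3 (73.8% of its cells there) and 22 in ERI4 cells (47.8%), and 2 of its only 3 cells in PAC3. In ERI2, 35 of its 36 cells were in cluster 7. Barcode bc14-67-bc30-98947 had 18 of its 18 PAC3 cells and 7 of its 13 PAC1 cells in the cluster. It stands outside the 185-sequence list deposited for run 2, to which every call of the eribulin library belongs, so its calls cannot be set against ERI3. Barcode bc14-6-bc30-93034, whose ERI3 cells were mostly in cluster 8 (89.7%), had 14 of 554 ERI3 cells, 9 of 165 PAC3 cells and 17 of 425 ERI4 nuclei in cluster 2. Barcode bc14-95-bc30-33662 had 9 of 719 ERI4 cells and 8 of 188 ERI4 nuclei there, and bc14-65-bc30-93586 had 11 of 30 PAC1 cells. ERI3 and PAC3 shared 6 barcodes within the cluster, which were 12.2% of the 49 of ERI3 and 17.6% of the 34 of PAC3. Of those 34, 12 stand outside the run 2 list and had no counterpart among the ERI3 calls, all of which lie in it. These 6 held 83.3% of the called cells of ERI3 and 94.95% of those of PAC3.

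**Figure D5:**
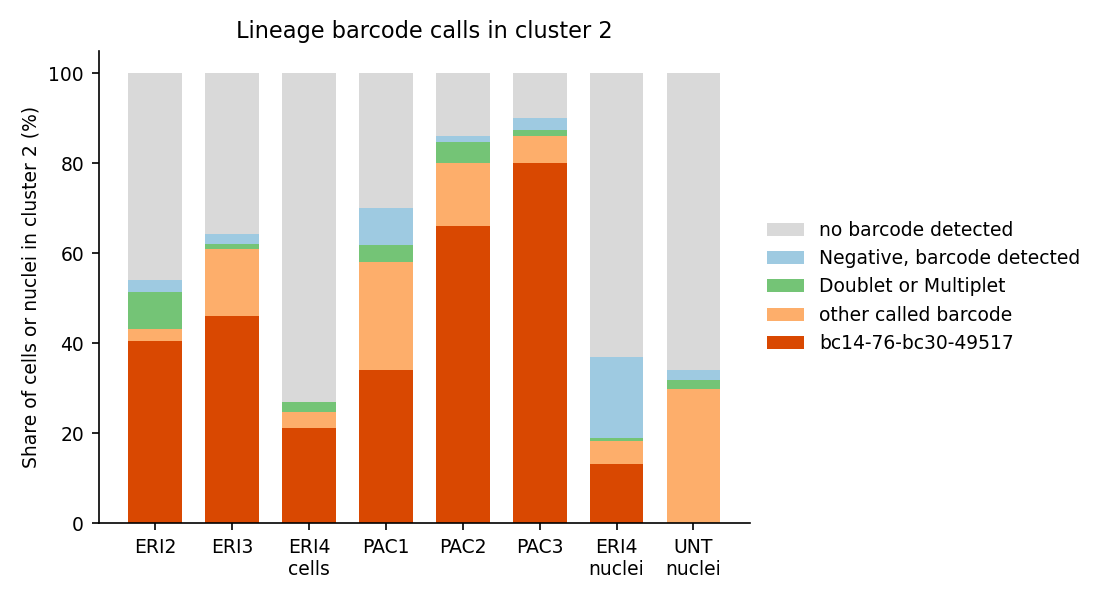
Barcode calls of cluster 2 members by condition, as percent of cells or nuclei: bc14-76-bc30-49517, any other called barcode, Doublet or Multiplet, a barcode detected but called Negative, and none detected. No barcode was detected in 73.1% of ERI4 cells, 35.8% of ERI3 and 9.84% of PAC3 cells.

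Many members had no barcode read. The share was 73.1% in ERI4 cells (71.0 to 75.0%), 35.8% in ERI3 (33.5 to 38.2%) and 9.84% in PAC3 (8.27 to 11.6%). In ERI4 cells it was 2.05% in cluster 3 and 8.32% in cluster 8, but 72.7% in cluster 12. Outside cluster 2 it was 13.1% in ERI4 cells, 8.83% in ERI3 and 9.32% in PAC3. Members without a barcode were thus more frequent than in the rest of the condition in ERI3 and ERI4 cells, by more than counting error. In PAC3 the difference was within it. The same direction was seen in ERI2 and in nuclei, untreated ones included. Of ERI2 cells with no barcode, 10.8% lay in the cluster, against 2.94% of all ERI2 cells. For ERI4 nuclei these shares were 9.73% and 7.36%, and for UNT nuclei 0.804% and 0.474%. In PAC2 the order was the reverse, 6.43% against 7.67%. In PAC1, 81 of 270 members had none (24.6 to 35.9%), against 21.9% of cells outside the cluster (20.4 to 23.6%). It fell with depth: in ERI4 cells it was 85.2%, 78.5%, 71.3% and 57.2% over the same 4 groups, shallowest first, and in PAC3 18.3%, 13.0%, 6.83% and 1.24%. Detection is also not the same measure in each run, because the lowest barcode count above 0 was 8 in ERI4 cells, 1 in the run 2 conditions and 175 in ERI4 nuclei.

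Barcode RNA was low in this lineage and not in every lineage of the cluster. Within cluster 2 of ERI3, cells called bc14-76-bc30-49517 had a median of 3 barcode counts, bc14-89-bc30-6288 had 3 and bc14-55-bc30-23349 had 14. Outside the cluster in ERI3, bc14-76-bc30-49517 had a median of 2 counts in cluster 6, and bc14-55-bc30-23349 had 15 in cluster 3. Per 10000 UMIs, the median for bc14-76-bc30-49517 was 2.18 in cluster 2 of ERI3, 1.86 in cluster 6 of ERI3 and 3.29 in cluster 7 of ERI2, against 12.8 for bc14-55-bc30-23349 in cluster 2 of ERI3. A minimum of 8 barcode counts, the lowest above 0 in ERI4 cells, was also applied. The share of cluster 2 cells with a barcode was then 26.9% in ERI4 cells, 11.5% in ERI3 and 13.6% in PAC3. At that minimum, chosen after the counts were seen, the share of bc14-76-bc30-49517 among called cells was 45.6% in ERI3 (38.2 to 53.1%), 89.6% in PAC3 and 18.9% in PAC1 (7 of 37). Its share in ERI3 and PAC1 was thus lower among cells with more barcode RNA, and in PAC3 it moved by less than 4 points.

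The calls themselves differed between runs. Of the ERI4 cells of cluster 2 called bc14-76-bc30-49517, 89.9% had 2 or more barcodes detected, against 2.69% in ERI3 and 3.00% in PAC3. The original call had named 82.6% of them Doublet in ERI4 cells, 1.92% in ERI3 and 1.93% in PAC3. In ERI4 nuclei, 83.3% of those called had been Negative in the original call. In the paclitaxel library 65.7% of all called cells carried a barcode of the 185-sequence list deposited for run 2, whereas all 4453 called cells of the eribulin library did. In cluster 2 of PAC3 that share was 97.2%.

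In ERI4 cells, members called bc14-76-bc30-49517 and members without a barcode had like pseudotime and lay close on the map. The median pseudotime was 25.7 both in members with no barcode detected and in those called bc14-76-bc30-49517. On the second UMAP axis the medians were 4.60 without a barcode and 4.66 in the lineage, and median UMIs were 22641 without a barcode and 26769 in the lineage. The 70 ERI4 members with another called barcode lay at 4.70, with a median pseudotime of 25.0 (24.7 to 25.6). Closeness on that axis therefore does not tell lineages apart. In ERI3 the medians on the first UMAP axis were -1.88 without a barcode (-1.98 to -1.83) and -1.66 in the lineage (-1.74 to -1.60). The ERI3 members without a barcode also had more S calls, 26.5% (23.1 to 30.2%), than those of the lineage, 17.1% (14.5 to 19.9%), with median UMIs of 10718 without a barcode and 11837.5 in the lineage. ERI3 members with another called barcode had 17.7% S calls (13.2 to 23.0%). In PAC3, S calls were 23.6% without a barcode and 20.1% in the lineage, within counting error. Whether members without a barcode belong to the same lineage was not tested.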

How the data were processed

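The 6 libraries of PB3 cells or nuclei were analysed through the authors' deposited cell table, UMAP coordinates and barcode sequence lists; no gene expression matrix was used. Per the submitters' processing notes, reads were processed against mm10 with Cell Ranger 3.1.0, Cell Ranger 4.0.0 and Cell Ranger ARC 1.0.0, and cells with Seurat 3.1.4; per the series' design text, these served runs 1, 2 and 3, and pseudotime came from Monocle3 0.2.1 rooted in untreated cells. Cells of fewer than 200 genes, or above 50% mitochondrial or ribosomal UMIs, were removed, per that text; 179 of the 51785 deposited entries, none of cluster 2, lay outside this filter and were kept. The deposited counts (UMIs, genes and barcode counts per cell) are not normalized. The deposited percent values give the part of each cell's UMIs from mitochondrial genes. The deposited score columns hold phase scores and pseudotime, on arbitrary scales, and the authors' cluster numbers and latest barcode calls were used as given.

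Conditions were taken from the deposited condition names after matching each library to the labels. Each of the 10 conditions was measured in 1 of 6 libraries, the run 2 libraries each pooling 3 hashtagged conditions, so cells are no replicates and values are set side by side. Shares have exact Clopper-Pearson 95% intervals and medians exact binomial 95% intervals, for counting error only. Median UMIs per condition were 11267 to 20877 in cells and 2089 to 3428 in nuclei. Without gene counts no thinning of cells was possible, so a common UMI window was used (highest 10th to lowest 90th percentile). It was set over all clusters for the shares of conditions, and within cluster 2 for all other values. UMAP mixing used the 30 nearest neighbours within the cluster. Every nucleus lists at least 1 barcode feature, so 1 was subtracted there. Doublets were handled only through the deposited calls. Sharing of cell barcodes across libraries concerned 245 of 51540 barcodes in all, and 34 members had one that also occurs in another library outside the cluster.

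The members, lists and comparisons were chosen with earlier results of these data known. Named barcodes are those called in at least 5% of called members of a condition with 100 or more, plus the 5 most frequent. Alternatives were a UMI window, at least 1000 genes, the stated filter, other barcode calls, another phase threshold, means, and 10 or 50 neighbours. Python 3.11.15, pandas 2.3.3, NumPy 2.4.6, SciPy 1.17.1 and Matplotlib 3.10.9 were used.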

Additional observations from a re-analysis of the deposited data

Results flagged for a closer look

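Between rounds 2 and 3, 5 of 11 quantities of cluster 2 moved in opposite directions under the 2 drugs. The difference was not tested, and the round 2 groups were small, with 37 cells in ERI2 (16 with a called barcode) and 65 in PAC2 (52 called). PAC2 also differs from PAC3 in the named recovery. Median UMIs per cell changed by -2206 between ERI2 and ERI3 and by 1164.5 between PAC2 and PAC3, as round 3 minus round 2. Median genes per cell changed by -377 under eribulin and by 168.5 under paclitaxel. The G1 share changed by -5.70 percentage points under eribulin and by 5.28 under paclitaxel, and the S share by 4.27 points under eribulin and by -7.54 under paclitaxel. The share of bc14-76-bc30-49517 among called cells changed by -18.3 points under eribulin and by 10.5 under paclitaxel. Of the round 3 values, only that barcode share in PAC3, 93.2%, lay outside the round 2 interval, 69.7 to 91.8% in PAC2. The other moves were within the counting error of round 2. Median UMIs and the G1 share both fell under eribulin and both rose under paclitaxel. Within a condition, G1 calls were instead fewer in deeper cells. From the shallowest to the deepest group they went from 65.3% to 21.7% in ERI3 and from 54.2% to 23.8% in PAC3. The part of depth and phase calls in each other was not tested.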

How the results depend on the processing

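Of 112 recomputed values of 32 results in ERI4 cells, ERI3 and PAC3, 53 stayed inside the main value's interval and 59 left it. The intervals are of unlike kinds. For neighbours they treat a mean share as a count of cells, and for pseudotime differences they join the ends of median intervals. Means were set against the interval of a median. No pseudotime difference changed sign, and the causes were not tested. In a common UMI window set over all clusters (12026 to 19690.5), cluster 2 held 14.6% of ERI4 cells and 60.2% of ERI3. In the window set within cluster 2 (13512 to 18945), S shares were 16.5% in ERI4 cells, 15.5% in ERI3 and 17.7% in PAC3. Median S scores there were -0.18 in ERI4 cells, -0.15 in ERI3 and -0.16 in PAC3, so ERI4 cells were lowest, where they had been highest over all cells. No barcode was detected in 80.6% of ERI4 cells, 31.0% of ERI3 and 6.49% of PAC3, and 1 barcode was called in 18.2% of ERI4 cells, 64.4% of ERI3 and 89.97% of PAC3. For ERI4 cells the window gave a pseudotime of 25.3, a mitochondrial share of 4.87% and a share of bc14-76-bc30-49517 of 92.2%. Among cells with 1 called barcode, the cluster held 7.20% of ERI4 cells, 46.7% of ERI3 and 48.5% of PAC3, so ERI3 was below PAC3 there, within counting error. Without bc14-76-bc30-49517 it held 17.5% of ERI4 cells, 40.9% of ERI3 and 15.3% of PAC3, S calls in ERI3 were 23.4% and pseudotime in PAC3 was 20.9. With that barcode alone, S calls were 32.6% in ERI4 cells and 17.1% in ERI3. Without Doublet and Multiplet calls the cluster held 48.7% of PAC3. At a phase threshold of 0.05, S calls were 25.1% in ERI4 cells, 14.8% in ERI3 and 13.95% in PAC3. G1 cells had a pseudotime of 24.9 in ERI4 and 22.5 in ERI3, a difference of 2.32. Means in place of medians gave 24659 UMIs in ERI4 cells, 12659 in ERI3 and 14905 in PAC3, mitochondrial shares of 4.66% in ERI4 cells, 3.08% in ERI3 and 2.91% in PAC3, a pseudotime of 25.1 in ERI4 cells and 21.2 in PAC3, and differences of 2.42 for ERI4 minus ERI3 and 1.45 for ERI3 minus PAC3. The share of bc14-76-bc30-49517 with the original calls was 70.6% in ERI4 cells, 79.8% in ERI3 and 98.5% in PAC3, and in cells with exactly 1 detected barcode 79.2% in ERI4 cells, 79.7% in ERI3 and 98.6% in PAC3. With the first revision it was 78.1% in ERI3 and 98.2% in PAC3, and 22.1% of ERI4 cells and 80.7% of PAC3 had 1 called barcode. The minimum of 8 barcode counts, chosen after seeing the data, gave 45.6% in ERI3 and 89.6% in PAC3, and left 88.5% of ERI3 and 86.4% of PAC3 cells without a barcode. With neighbours from all clusters, 28.3% of those of ERI3 cells were PAC3. No paired analysis was possible because each condition has 1 library and no test was run; for the same reason no library could be left out. Nuclei, with medians of 2089 to 3428 UMIs per condition, limit what their barcode calls can show.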

Other observations

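In ERI4 nuclei of cluster 2, the first revision of the barcode calls named bc14-55-bc30-23349 in 225 nuclei. The latest call names 189 of these Negative, and 149 of them have no barcode detected. Hashtag counts per cell in the cluster had medians of 667.5 in ERI3 (671 in the rest of that condition) and 556 in PAC3 (660.5 in the rest). Of the neighbours of PAC1 cells of cluster 2 on the whole map, 63.7% lay in cluster 2 and 20.7% in cluster 6.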
